A study of Drosophila melanogaster with 12 samples.

Results

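Transcripts of contractile proteins of insect flight muscle were followed in head RNA of clock mutant fruit flies (Drosophila melanogaster). The set was 10 named genes, and its members were the probe sets whose platform annotation gave exactly 1 gene symbol from that set. They covered 8 of 10844 genes with 1 symbol, by 9 of the 13966 probe sets analysed: Act88F, Act79B, TpnC4, up (with 2 probe sets), Tm2, Mlc1, Mlc2 and fln. No probe set carried the symbol Mhc or wupA alone, and both were left out. All arrays came from y w; tim01 flies, so every group carried the y and w body and eye colour mutations and the tim01 allele of timeless, a gene the circadian clock needs. After 3 days of 12 h light and 12 h darkness, heads were collected every 4 h over 1 further light-dark day (LD, hours ZT2 to ZT22) and then over 1 day in constant darkness (DD, hours CT2 to CT22). The 12 arrays form 4 groups of 3. In LD these are the light phase (ZT2, ZT6 and ZT10) and the dark phase (ZT14, ZT18 and ZT22). In DD, where all arrays were dark, they are the subjective day (CT2, CT6 and CT10) and the subjective night (CT14, CT18 and CT22). Each sample pooled about 100 to 200 sieved heads, there was 1 array for each time, and no strain with a working clock was analysed here. The age and sex of the flies are not given in the labels. The DD day always followed the LD day, so lighting and collection day cannot be told apart.

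Muscle shortens when thick filaments of myosin pull on thin filaments of actin. Tropomyosin and the troponin complex sit on the thin filament and hold contraction back until calcium binds troponin C. The indirect flight muscles of the fly fill much of the thorax and use proteins of their own. Among them are the actin isoform Act88F, the troponin C isoform TpnC4 and the thick filament protein flightin, encoded by fln. Other members of the set serve muscle more widely: Act79B encodes an actin of tubular muscles such as the jump muscle, up encodes troponin T, Tm2 a muscle tropomyosin, and Mlc1 and Mlc2 the essential and regulatory light chains of muscle myosin. The head holds muscles of its own, for instance those that move the proboscis, but no indirect flight muscle.

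Signal is given as log2 RMA, in which 1 unit is a doubling. Array medians lay between 4.0 and 4.1, lower quartiles between 2.88 and 2.97 and upper quartiles between 5.19 and 5.28. The lowest of each belonged to CT2. All 8 measured eye genes had means above the upper quartile of every array, as did 7 of 8 head fat body genes and 2 of 7 neuron genes. Differences between groups were tested with limma across all probe sets, and a call needs a Benjamini-Hochberg adjusted p under 0.05. The 3 arrays of a group are successive times, not replicates of 1 condition, and the spread among them is all that the p-values measure. Standard deviations (SD, n = 3 arrays) and standard errors (SE) carry the same limit.

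Some arrays stood apart in ways the groups do not give. Markers of midgut and of male reproductive tissue, which should lie outside the head, stood high on ZT22 in the LD day and on CT10 and all 3 subjective night arrays in the DD day. Each marker gene was centred on its mean over the 12 arrays. The midgut markers then averaged between 1.34 and 1.65 in the DD subjective night, 0.80 at ZT22 and 0.25 at CT10, and between -1.31 and 0.19 on the other 7 arrays. The male markers averaged between 0.64 and 0.85 in the DD subjective night, 0.37 at ZT22 and 0.18 at CT10, and between -0.65 and 0.02 on the other 7.

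The flight muscle actin gene Act88F (CG5178) varied most. In LD light it was at 3.51 (ZT2), 3.50 (ZT6) and 3.77 (ZT10), and in LD dark at 3.53 (ZT14), 3.97 (ZT18) and 4.13 (ZT22). In the DD subjective day it was at 3.69 (CT2), 3.45 (CT6) and 4.59 (CT10), and in the subjective night at 4.91 (CT14), 5.39 (CT18) and 5.37 (CT22). The 3 subjective night arrays were the highest of all 12, CT10 came next, and the LD groups overlapped each other. Here and below, a change in the amount of muscle tissue in a sample and a change in RNA per cell cannot be told apart. Act88F lay above the upper quartile on 2 arrays and below the lower quartile on 0. Of all probe sets, 0.48% had a range over the arrays at least as large as its 1.95.

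The flightin gene fln (CG7445) was dim on many arrays. Its LD light values were 2.40 (ZT2), 2.64 (ZT6) and 2.51 (ZT10), and its LD dark values 2.71 (ZT14), 3.0 (ZT18) and 3.30 (ZT22). Its DD values were 2.57 (CT2), 2.53 (CT6) and 3.14 (CT10) by subjective day and 4.23 (CT14), 3.57 (CT18) and 3.51 (CT22) by subjective night. The 3 subjective night arrays were again the highest, but with the top value at CT14, earlier than for Act88F. On 6 of 12 arrays fln was below the lower quartile of the array, so the size of its changes is uncertain.

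TpnC4 (CG12408), the calcium sensor isoform tied to stretch activation of flight muscle, was dim on most arrays. It was at 1.79 (ZT2), 1.99 (ZT6) and 2.13 (ZT10) in LD light and at 1.88 (ZT14), 2.18 (ZT18) and 2.99 (ZT22) in LD dark. In DD it was at 1.82 (CT2), 1.86 (CT6) and 2.60 (CT10) by subjective day and at 2.85 (CT14), 3.34 (CT18) and 3.37 (CT22) by subjective night. ZT22 exceeded CT14, so the subjective night overlapped with LD dark but not with the subjective day or LD light. TpnC4 lay below the lower quartile on 9 of 12 arrays, and the size of its changes is uncertain for the same reason.

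The other actin gene, Act79B (CG7478), was bright on every array. Its values were 6.67 (ZT2), 6.67 (ZT6) and 6.56 (ZT10) in LD light, and 6.55 (ZT14), 6.86 (ZT18) and 6.78 (ZT22) in LD dark. They were 6.58 (CT2), 6.65 (CT6) and 6.91 (CT10) in the DD subjective day, and 7.17 (CT14), 7.14 (CT18) and 7.08 (CT22) in the subjective night. The subjective night arrays lay close together and were the 3 highest. The suffix _f_at of this probe set is the manufacturer's mark for probes that can match several genes of a family, so other actin transcripts may contribute to these values.

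Transcripts of troponin T and tropomyosin varied over narrower ranges than that of TpnC4. The brighter probe set of the troponin T gene up (CG7107) was at 4.72 (ZT2), 4.54 (ZT6) and 4.61 (ZT10) in LD light, 4.73 (ZT14), 4.69 (ZT18) and 4.56 (ZT22) in LD dark, 4.43 (CT2), 4.61 (CT6) and 4.72 (CT10) in the subjective day, and 4.78 (CT14), 4.85 (CT18) and 4.76 (CT22) in the subjective night. The subjective night values lay above all others, narrowly so over ZT14. The other probe set of up stayed between 2.59 and 2.84, below the lower quartile on all 12 arrays, and had its highest value at ZT14. The tropomyosin gene Tm2 (CG4843) was at 4.96 (ZT2), 4.84 (ZT6) and 4.92 (ZT10) in LD light, 4.86 (ZT14), 4.95 (ZT18) and 5.01 (ZT22) in LD dark, 4.74 (CT2), 4.78 (CT6) and 4.88 (CT10) in the subjective day, and 4.97 (CT14), 5.30 (CT18) and 5.07 (CT22) in the subjective night. Its subjective night overlapped with LD dark but not with the subjective day.

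The myosin light chain genes were bright on all 12 arrays and above every array's upper quartile. Mlc1 (CG5596) was at 7.15 (ZT2), 7.14 (ZT6) and 7.32 (ZT10) in LD light, 7.29 (ZT14), 7.46 (ZT18) and 7.70 (ZT22) in LD dark, 7.27 (CT2), 7.23 (CT6) and 7.47 (CT10) in the subjective day, and 7.52 (CT14), 7.82 (CT18) and 7.69 (CT22) in the subjective night. Within each night, Mlc1 was lowest at the first hour, and the nights overlapped each other. Mlc2 (CG2184) was at 9.82 (ZT2), 9.75 (ZT6) and 9.99 (ZT10) in LD light, 9.94 (ZT14), 10.07 (ZT18) and 10.01 (ZT22) in LD dark, 9.80 (CT2), 10 (CT6) and 10.17 (CT10) in the subjective day, and 10.21 (CT14), 10.43 (CT18) and 10.19 (CT22) in the subjective night. Its 3 subjective night values were the highest of the 12, the lowest of them just above CT10.

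**Figure D1:**
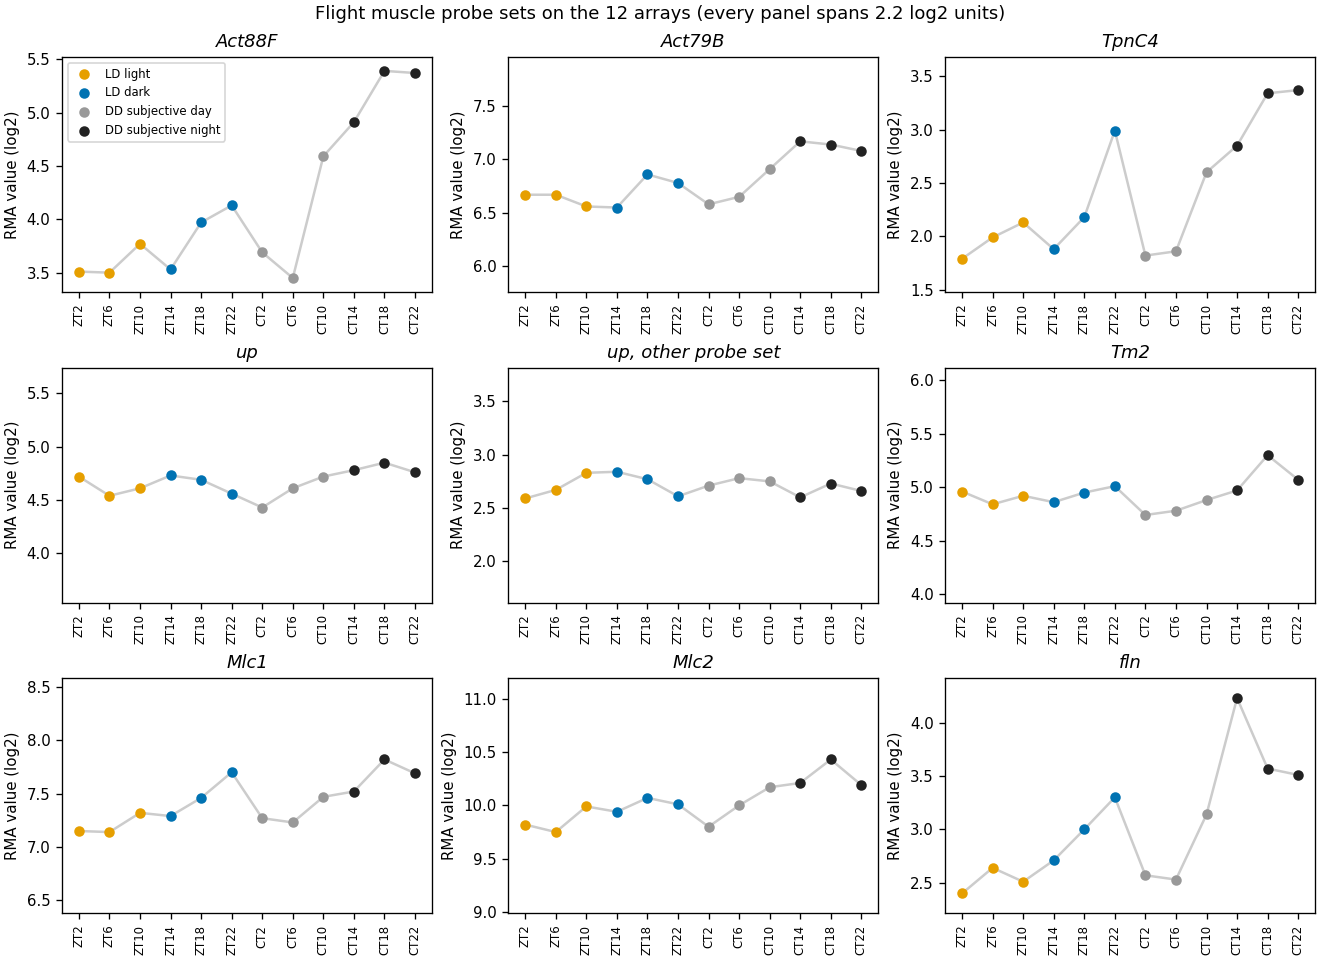
RMA values (log2) of the 9 probe sets on the 12 arrays in order of collection, coloured by group, each panel spanning the same number of log2 units. Act88F, fln and TpnC4 ranged over 1.95, 1.83 and 1.58, while the other 6 probe sets ranged over 0.24 to 0.68.

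In constant darkness 4 of the 8 genes, the flight muscle genes Act88F, TpnC4 and fln and the actin gene Act79B, rose from subjective day to subjective night. Act88F went from 3.91 ± 0.60 to 5.22 ± 0.27 (SD, n = 3 arrays each), a 2.49-fold difference of 1.31 (SE 0.228, limma adjusted p = 0.0105). TpnC4 rose by 1.09 (SE 0.244, adjusted p = 0.0381), fln by 1.02 (SE 0.191, adjusted p = 0.0145) and Act79B by 0.42 (SE 0.0913, adjusted p = 0.0321). In fold terms these were 2.13, 2.03 and 1.34. The other 4 genes had smaller differences that missed the threshold: 0.35 for Mlc1 (95% interval 0.13 to 0.58, adjusted p = 0.164), 0.31 for Tm2 (0.14 to 0.49, adjusted p = 0.088), 0.29 for Mlc2 (0.08 to 0.49, adjusted p = 0.261) and 0.21 for up (0.04 to 0.38, adjusted p = 0.352). The other probe set of up was at -0.09 (-0.25 to 0.08).

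Thus 4 of 9 probe sets were called higher in the subjective night, against 1.34% of all probe sets, and 0 were called lower, against 0.0501%. The median over the 8 genes was 0.39, and over all probe sets it was 0.00. The groups did not overlap for 8 of 9 probe sets, against 7.96% of all. Values above 0 were found for 8 of 9, against 48.7%. The highest of the 12 arrays was a subjective night array for 8 of 9, against 21.3%. An unadjusted p under 0.05 was found for 8 of 9, against 9.04% of all. For 5 of 9 the subjective night arrays were the 3 highest of 12, against 2.28%. Because these genes were chosen with that pattern known, the shares describe them and do not test them as a set.

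**Figure D2:**
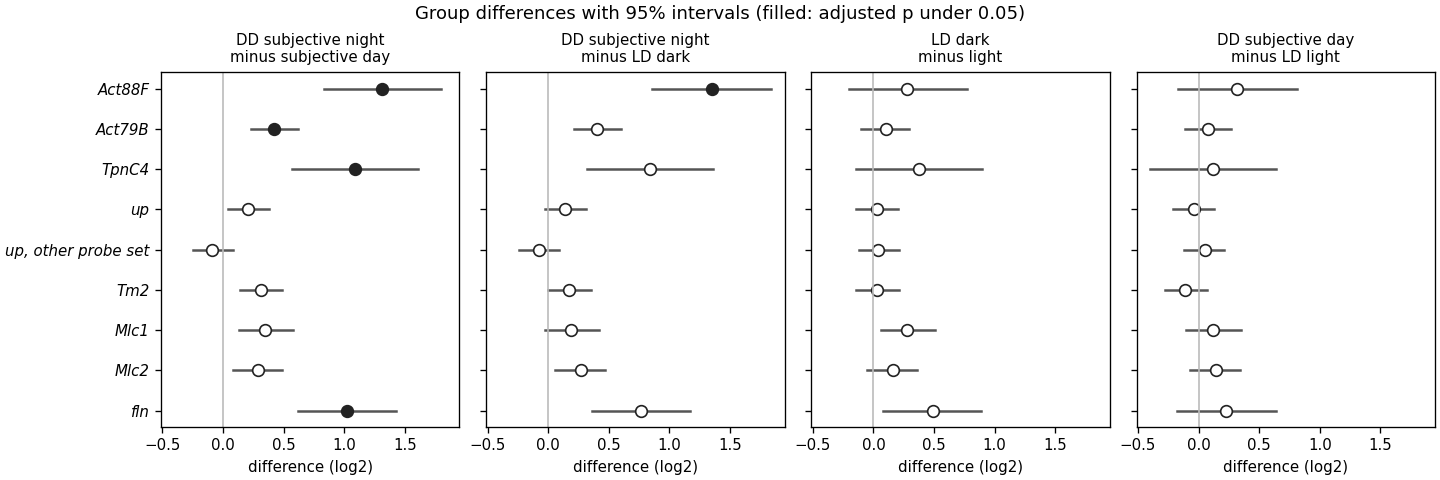
Differences between groups (log2) for the 9 probe sets in 4 comparisons, with 95% intervals from the limma fit; filled points have an adjusted p under 0.05. The calls are Act88F, Act79B, TpnC4 and fln between the DD phases (0.42 to 1.31), and Act88F between the nights (1.35).

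Each of the 4 calls was lost when certain single arrays were left out. Over all probe sets the 194 calls also fell, to 34 without CT2, 40 without CT6, 72 without CT14, 44 without CT18 and 146 without CT22. They became 254 without CT10, and 163, 163 and 157 without ZT6, ZT10 and ZT18. Act88F was lost without CT2 (1.21, adjusted p = 0.0805), CT6 (1.08, 0.0658) or CT18 (1.23, 0.0755), and was 1.65 (0.000217) without CT10. The fln call was lost without CT2 (0.94, adjusted p = 0.105), CT6 (0.92, 0.0913) or CT14 (0.79, 0.062). Act79B was lost without any 1 DD array other than CT10, at 0.36 to 0.44 with adjusted p between 0.0663 and 0.178. TpnC4 kept its call when ZT2, ZT14, ZT22 or CT10 was left out. It was lost without CT2, CT6, CT14, CT18 or CT22 (0.95 to 1.26, adjusted p between 0.0542 and 0.207). It was also lost, at an unchanged 1.09, without the LD arrays ZT6 (0.0577), ZT10 (0.0526) or ZT18 (0.0563). The direction held for all 9 probe sets whichever array was left out.

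**Figure D3:**
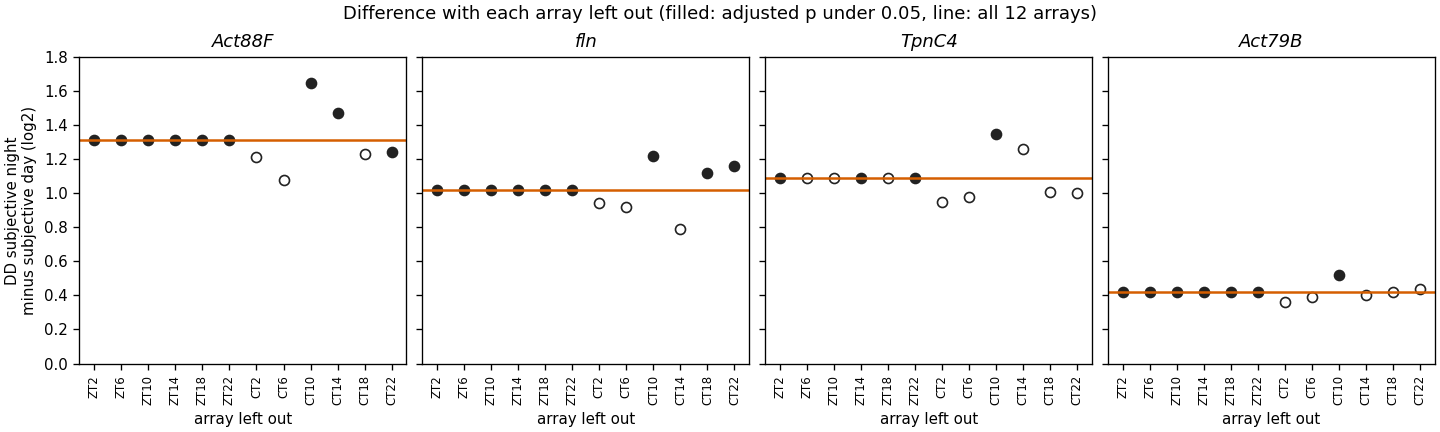
Difference between DD subjective night and subjective day (log2) for the 4 called genes with each array left out in turn; the line marks the value with all 12 arrays and filled points have an adjusted p under 0.05. All values stay above 0, from 0.36 for Act79B without CT2 to 1.65 for Act88F without CT10.

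Within the subjective day, CT10 stood apart from the earlier times. It was the highest of the 3 arrays for 8 of 9 probe sets, against 38.9% of all probe sets. Only the dim probe set of up had its highest subjective day value elsewhere, at CT6.

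Markers of other body tissues moved with this result. Of 16 midgut genes, 12 rose from subjective day to night, with a median of 2.50, and the groups did not overlap for any of the 16. The called genes were Mal-A1, a sugar-cleaving enzyme gene (1.67, SE 0.192, adjusted p = 0.00103), the trypsin genes alphaTry, betaTry and epsilonTry, the protease genes Jon25Bii, Jon25Biii, Jon74E, Jon99Ci, Jon99Fi, Jon99Fii and yip7, and Bace. The midgut list averaged 4.90 to 6.46 on the subjective day arrays and 7.56 to 7.87 on the subjective night arrays. Of its 16 genes, 0 had means under all lower quartiles. Of 22 male reproductive genes, 13 rose, with a median of 0.84 and no overlap for any of the 22, among them the seminal fluid gene Acp36DE (1.91, SE 0.307) and the sperm gene dj (1.38, SE 0.24). The other 11 were Acp26Ab, Acp53Ea, Acp62F, Acp76A, SP, ocn, janB, Mst84Da, Mst84Db, Mst98Ca and betaTub85D. Their list averaged 3.44 to 4.28 by subjective day and 4.74 to 4.95 by night, and 7 of the 22 had means below every lower quartile.

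With the mean centred level of these midgut and male markers as a covariate, the difference was 0.46 (SE 0.258) for Act88F and 0.34 (SE 0.227) for fln. It was 0.12 (SE 0.122) for Act79B and 0.06 (SE 0.232) for TpnC4. None was called by limma (adjusted p = 0.97 or more), and of all 13966 probe sets 0 were called, against 194 without a covariate. That level was 0.97 to 1.18 on the subjective night arrays and -0.93 to 0.21 on the subjective day arrays. The covariate is thus partly confounded with the phases. A linear trend over collection hours, which is partly confounded with the phases, left 0.49 for Act88F, 0.82 for fln, 0.29 for Act79B and 0.06 for TpnC4 (each with adjusted p = 0.918 or more). The part that such tissue plays in the muscle values was not tested.

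No gene of the head marker lists was called by limma between subjective day and night. The eye list had a median of -0.08 with 0 of 8 genes called. Its 3 genes with an unadjusted p under 0.05, trpl, trp and inaC, all had lower values by night, and 9.04% of all probe sets had such a p in either direction. The neuron list had a median of -0.03 with 0 of 7 called (0 unadjusted) and the head fat body list -0.02 with 0 of 8 (0 unadjusted). The lowest p-values belonged to the light-sensitive channel genes trpl (-0.29) and trp (-0.19) in the eye list, to the synaptic gene brp (0.16) and the transmitter enzyme gene ChAT (0.17) in the neuron list, and to Fbp1 (-0.12) and the yolk protein gene Yp2 (0.09) in the fat body list. Female germline and follicle genes, which also lie outside the head, had a median of 0.01 with 0 of 12 called (0 unadjusted). Of these 12, 3 had means below every lower quartile, where a change may not show. The smallest p-values there were those of the eggshell genes Cp38 (-0.13) and Cp18 (0.18). The 3′ to 5′ signal difference of the GAPDH control was 2.19 to 2.31 by subjective day and 2.10 to 2.24 by night. That of the eIF-4a control was 3.10 to 3.24 and 2.90 to 3.11, and that of the actin control 2.04 to 2.40 and 1.95 to 2.52.

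**Figure D4:**
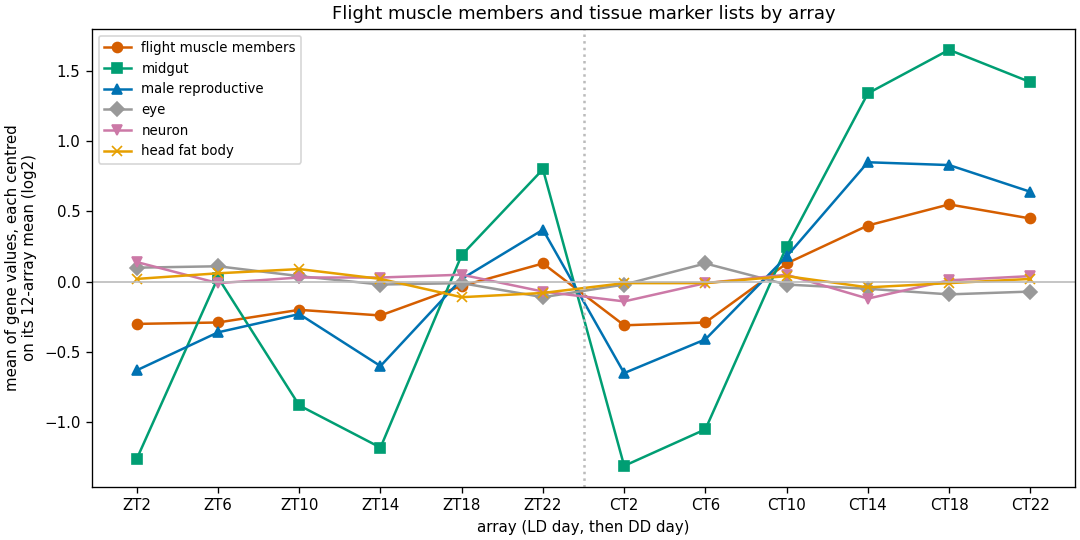
Mean over the genes of each list on each array, after centring every gene on its 12-array mean (log2), for the 8 flight muscle genes and 5 marker lists. Muscle, midgut and male markers are highest at CT14 to CT22 and eye, neuron and head fat body lists stay between -0.14 and 0.14.

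The profiles of muscle and midgut markers were not identical in the LD day. At ZT6 the midgut markers averaged 0.03, while the 8 muscle genes averaged -0.29 and the male markers -0.36. At ZT22 all 3 lists had their highest LD average, at 0.80, 0.13 and 0.37. ZT22 was the highest LD array for 5 of 9 muscle probe sets, against 16% of all probe sets.

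No other listed muscle gene was called in the same comparison. Of 33 measured genes in 6 further muscle lists, 0 were called by limma between DD subjective day and night and the median was 0.11. An unadjusted p under 0.05 was found for 10 of the 33, against 9.04% of all probe sets, and values above 0 for 28, against 48.7%. In each list the members with the smallest p are given. Among 5 thin filament genes the median was 0.23. The actin gene Act87E was at 0.32 (SE 0.0835, adjusted p = 0.0842), on another probe set marked for family matches, and the troponin C gene TpnC41C was at 0.34 (SE 0.105, adjusted p = 0.192). Among 7 thick filament and titin-like genes the median was 0.13, with Mf, which encodes the protein myofilin, at 0.21 (SE 0.0787) and Prm, which encodes paramyosin, at 0.23 (SE 0.0966). Among 8 Z-disc and anchoring genes the median was 0.05, with the Z-disc gene Zasp66 at 0.29 (SE 0.0959) and the small heat shock protein gene l(2)efl at 0.15 (SE 0.082).

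Lists outside the filaments and the Z-disc had medians of 0.09 (4 calcium handling genes), 0.11 (5 energy supply genes) and 0.08 (4 developmental regulators). SERCA, the calcium pump of the sarcoplasmic reticulum, was at 0.46 (SE 0.166, adjusted p = 0.317) and the release channel gene RyR at 0.21 (SE 0.118). All 5 energy supply genes had values above 0, with the aldolase gene Ald1 at 0.24 (SE 0.0836) and the mitochondrial carrier gene sesB at 0.15 (SE 0.0838). All 4 developmental regulators were above 0 as well, with the wing and flight muscle regulator vg at 0.18 (SE 0.0725) and ap at 0.08 (SE 0.0689). Of these 4, 2 had means below every lower quartile, among them vg (2.16). The 3 measured nonmuscle actomyosin genes had a median of 0.01. Mlc-c, the nonmuscle essential light chain, was at -0.18 (SE 0.0745, adjusted p = 0.414) and the cofilin gene tsr at 0.02. A probe set of the titin-like gene sls with a mean of 2.68, not the brightest of that gene, was at 0.39 (adjusted p = 0.0919), while the brightest is the one counted above. That probe set was named after its values were seen.

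**Figure D5:**
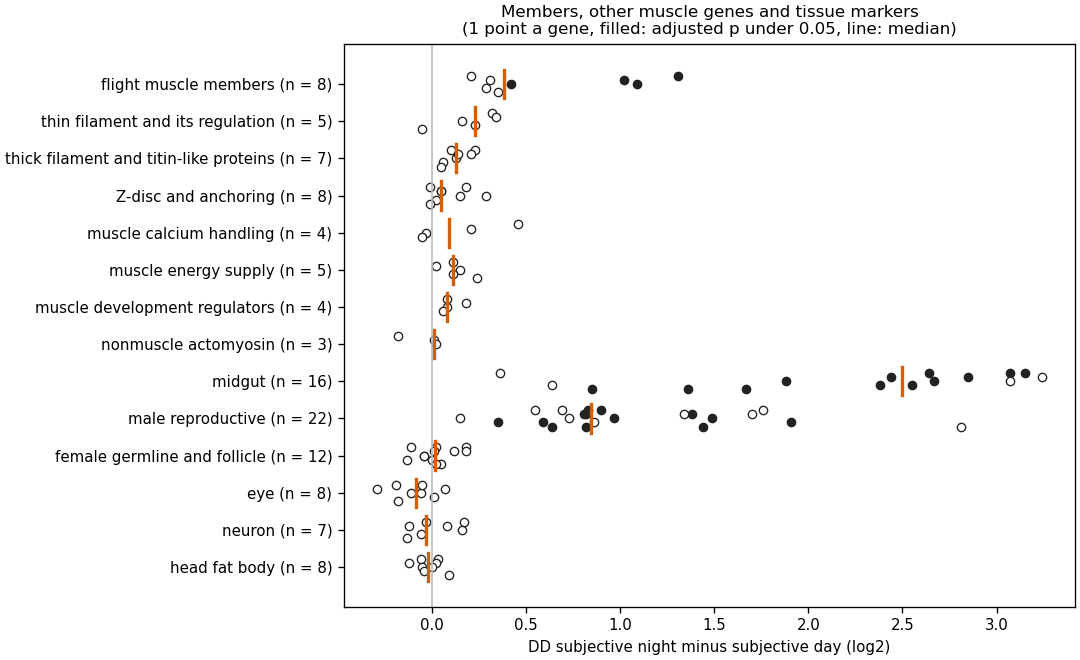
Difference between DD subjective night and subjective day (log2) for the 8 flight muscle genes, 6 lists of other muscle genes, nonmuscle actomyosin and 6 tissue marker lists, 1 point a gene. Medians are 0.39 for the flight muscle genes, between 0.05 and 0.23 for the other muscle lists, 2.50 for midgut and 0.84 for male reproductive genes.

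Of the 8 genes, Act88F alone was called between the DD subjective night and the LD dark phase, groups collected at the same clock hours. It rose from 3.88 ± 0.31 to 5.22 ± 0.27 (SD, n = 3 arrays each), which is 2.55-fold or 1.35 on the log2 scale (SE 0.228, adjusted p = 0.0266 by limma). This was 1 of 9 probe sets, against 0.158% of all called higher, and 0 were called lower, against 0.043%. Differences above 0 were found for 8 of 9, against 42.1%, and an unadjusted p under 0.05 for 5 of 9, against 9.7%. The next largest differences were 0.84 for TpnC4 (95% interval 0.32 to 1.36, adjusted p = 0.203), 0.77 for fln (0.36 to 1.17, adjusted p = 0.119) and 0.40 for Act79B (0.21 to 0.60, adjusted p = 0.0921). Mlc2, Mlc1, Tm2 and up had differences of 0.27, 0.19, 0.17 and 0.14, and the dim up probe set -0.08. The nights did not overlap for 5 of 9 probe sets, against 5.34% of all: Act88F, fln, Act79B, Mlc2 and the brighter one of up. Over the 8 genes the median was 0.33, and over all probe sets -0.02.

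The Act88F call was lost without ZT14 (1.18, adjusted p = 0.157), ZT18 (1.40, 0.118), CT14 (1.51, 0.0558), CT18 (1.26, 0.145) or CT22 (1.28, 0.0744). Over all probe sets, the 28 calls became 9, 9, 4, 0 and 21 in these refits. Without ZT22, fln (0.91, adjusted p = 0.041) and TpnC4 (1.16, 0.0128) were called as well, and without CT10 Act79B was (0.40, 0.0382). All probe sets gave 184 calls without ZT22 and 78 without CT10. Midgut markers averaged 5.03 to 7.01 in LD dark against 7.56 to 7.87 in the DD subjective night, and male markers 3.49 to 4.47 against 4.74 to 4.95. The mean centred level of both lists was -0.85 to 0.55 in LD dark and 0.97 to 1.18 in the subjective night. With it as a covariate Act88F was at 0.72 (SE 0.218, adjusted p = 0.72), and 0 of all probe sets were called, against 28 without it. The part of these markers in the result was not tested. ZT14 had the highest 3′ to 5′ difference of the 12 arrays for GAPDH (2.58) and eIF-4a (3.70). Over the groups GAPDH was at 2.23 to 2.58 in LD dark and 2.10 to 2.24 in the DD subjective night, and eIF-4a at 3.09 to 3.70 and 2.90 to 3.11. The part of RNA quality was not tested, and Act88F without ZT14 is given above. With the trend over collection hours Act88F was at -0.31 (SE 0.451), and 0 of all probe sets were called. Of the 33 other muscle genes, 0 were called (6 at an unadjusted p under 0.05), and the median was 0.03.

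Between dark and light in the LD day, 0 of 9 probe sets were called by limma, against 0.0286% of all called higher in darkness, and 2 had an unadjusted p under 0.05, against 7.12% of all. These were fln, at 0.49 (95% interval 0.08 to 0.89, adjusted p = 0.638), and Mlc1, at 0.28 (0.06 to 0.51, adjusted p = 0.616). All 9 differences were above 0, as were 46.1% of all, and the median over the 8 genes was 0.22. Midgut markers had a median of 0.74 with 16 of 16 above 0, and male markers 0.25 with 21 of 22 above 0, each with 0 called (1 and 2 unadjusted); their part was not tested. For fln the groups did not overlap, with 2.40 to 2.64 in light and 2.71 to 3.30 in darkness. That makes 1 of 9 probe sets, against 5.46% of all. Act88F was at 0.28 (-0.20 to 0.77) and TpnC4 at 0.38 (-0.14 to 0.90). Act79B, at 0.10, had an interval of -0.10 to 0.29.

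The daytime groups gave 0 calls by limma between DD subjective day and LD light, against 0% of all called higher, and 0 of 9 probe sets had an unadjusted p under 0.05, against 7.51% of all. Act88F was at 0.32 (95% interval -0.17 to 0.81), fln at 0.23 (-0.18 to 0.64) and TpnC4 at 0.12 (-0.40 to 0.64). The differences of the other 6 probe sets lay between -0.11 and 0.14, and 7 of all 9 were above 0, against 38.3% of all probe sets. Without CT10, Act88F was at -0.02, Act79B at -0.02 and TpnC4 at -0.13. For 0 of 9 probe sets did the groups lie apart with DD higher, against 3.96% of all.

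Whether the night minus day difference itself was larger in DD than in LD was tested directly. By limma, 0 of 9 probe sets passed, against 0% of all called higher, and 3 had an unadjusted p under 0.05, against 7.34% of all. These were Act88F, at 1.03 (95% interval 0.34 to 1.72, adjusted p = 0.483), Act79B, at 0.32 (0.05 to 0.60, adjusted p = 0.6), and Tm2, at 0.28 (0.03 to 0.53, adjusted p = 0.614). TpnC4 was at 0.71 (-0.02 to 1.45) and fln at 0.54 (-0.04 to 1.11). For Mlc1 it was 0.07 (-0.25 to 0.39). Values above 0 were found for 8 of 9, against 52.8% of all. A dependence of the night rise on the day was therefore not called for any member.

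A cosine with a period of 24 h, fitted to the 6 arrays of each day, described the DD pattern in a second way. Its amplitude, the distance from mean to peak on the log2 scale, was 0.99 for Act88F (SE 0.141, limma adjusted p = 0.0185), 0.78 for fln (SE 0.122, adjusted p = 0.026) and 0.32 for Act79B (SE 0.0541, adjusted p = 0.0366). That is 3 of 9 probe sets, against 0.78% of all, and 8 of 9 had an unadjusted p under 0.05, against 11%. Fitted peaks were at hour 17.5 for Act88F, 16.1 for fln and 16.5 for Act79B. For TpnC4 the amplitude was 0.80 (adjusted p = 0.105) with its peak at hour 17.6. Amplitudes of the other genes were 0.27 (Mlc1), 0.24 (Mlc2), 0.24 (Tm2) and 0.17 (up), none of them called. With only 1 DD cycle measured, a daily rhythm and a single climb towards the end of the series cannot be told apart.

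The cosine calls were also lost without certain single arrays. Without CT2 the amplitudes were 0.89 for Act88F, 0.77 for fln and 0.27 for Act79B (adjusted p = 0.0519, 0.128 and 0.176). Without CT6 they were 0.90, 0.76 and 0.33 (0.162, 0.157 and 0.165), and without CT14 1.1, 0.62 and 0.32 (0.054, 0.127 and 0.148). None of these 9 values was called. Over all probe sets, the 109 cosine calls became 12 without CT2, 0 without CT6 and 0 without CT14. The calls of Act88F (1.09, 0.0999) and Act79B (0.36, 0.116) were also lost without CT18, where 13 of all probe sets were called. Act79B lost its call at an unchanged 0.32 without ZT6 (0.0507), ZT10 (0.0585) or CT10 (0.0667). All probe sets gave 98, 95 and 69 calls in these 3 refits. TpnC4 gained a call at an unchanged 0.80 without ZT2 (0.0238) or ZT22 (0.0211), where all probe sets gave 222 and 168. With the midgut and male markers as a covariate the amplitude of Act88F was 0.44, that of fln 0.35 and that of Act79B 0.16. These had adjusted p = 0.731 or more, and 2 of all probe sets were called. With the trend over collection hours they were 0.60, 0.57 and 0.24, with adjusted p = 0.242 or more.

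In the LD day the same fit called 0 of 9 probe sets, against 0.0644% of all, and 2 had an unadjusted p under 0.05, against 8.94% of all. These were Mlc1, at 0.21 (adjusted p = 0.541), and the dim probe set of up, at 0.14 (adjusted p = 0.476). For Act88F the LD amplitude was 0.24 (adjusted p = 0.761) and for fln 0.33 (adjusted p = 0.566).

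The genes most like the set were sought among the 10836 other named genes, each by its brightest probe set, as those with the highest Pearson correlation with the mean of the 8 muscle genes over the 12 arrays. The arrays share their RNA and their normalization, and the correlations are descriptions of these 12 points. The first was Jon65Ai, a gene of the Jonah protease family, with r = 0.975 (Spearman's rho 0.853). It was followed by CG18609 (r = 0.973), SP, which encodes the sex peptide of seminal fluid (0.972), CG10252 (0.971), CG16904 (0.969), CG8997 (0.969), msopa (0.967) and CG34324 (0.967). Their differences between DD subjective night and day ran from 0.85 for CG10252 to 2.04 for CG16904. Within the set, the correlation of each gene with the mean of the other 7 was 0.96 for Act88F and 0.94 for TpnC4, and lowest for Tm2 (0.78) and up (0.66).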

How the data were processed

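The authors deposited 1 table of RMA values on the log2 scale, made from Affymetrix DrosGenome1 arrays. RMA is named in the submitters' processing notes; the sources used here give neither its version nor which arrays were normalized together. The precision is limited by the number of arrays. Removing 44 control probe sets from 14010 left 13966 to test; 12443 had 1 gene symbol in the platform annotation, 327 several and 1196 none. No 2 arrays held identical values (0 pairs). Locus tags come from the RefSeq gene table, and no sequence was used.

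Group means were fitted to all 12 arrays with limma 3.58.1 in R 4.3.3 (8 residual degrees of freedom) and contrasts were tested with moderated, two-sided statistics. The 24 h cosine and sine terms were fitted for both days in 1 model (6 residual degrees of freedom) and tested with limma's moderated F test. The Benjamini-Hochberg adjustment covered all 13966 probe sets. The code of the fits was checked on simulated data with independent noise for each probe set and array. Such data hold no movement shared by genes across arrays, so they do not test the p-values given here. Alternatives were quantile normalization, median centring, a filter at the median mean level, a trended robust prior, array weights, fits of only the arrays compared, a linear trend, a marker covariate, clock hour as a block and leaving out each array.

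The members, gene lists and tests were chosen with earlier results of these data known. A listed gene is represented by its probe set with the highest mean. The text names every member, in each list the genes called or otherwise the 2 with the smallest p between DD subjective night and day, and the 8 most correlated genes. Beyond these, Lsp2 of the head fat body list was called in the LD cosine fit and Anp of the male list in the DD cosine fit.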

Additional observations from a re-analysis of the deposited data

How the results depend on the processing

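Between DD subjective night and day, 4 muscle probe sets were called. The count was 2 above the median mean level, where fln, TpnC4 and the dim up probe set were not tested, 1 (Act79B) with the trended robust prior, where Act88F had adjusted p = 0.125, fln 0.117 and TpnC4 0.273, and 0 with the trend over collection hours or the marker covariate. Leaving out arrays gave 0 to 4. With quantile normalization TpnC4 kept a difference of 1.09 at adjusted p = 0.0527. Between the nights the count of 1 became 0 with that filter, that prior, the trend or the covariate. It ran from 0 to 3 without single arrays. Over all probe sets, the 28 calls became 4 of 6983 tested with the filter, 19 with the prior and 0 with the trend or the covariate. Without single arrays these ran from 0 to 184. Clock hour was also used as a replicate block, because both groups were collected at the same hours and the labels number no replicates. Act88F was then at 1.35 (adjusted p = 0.0036) and the member count stayed at 1, with 3 calls over all probe sets. That fit left only 2 residual degrees of freedom, against 8 in the main fit, so its error estimate is uncertain. The DD cosine count of 3 became 2 with array weights, 1 with that filter or that prior and 0 with the trend and the covariate. It ran from 0 to 4 without single arrays. Over all probe sets, the 109 cosine calls became 102 with array weights, 20 with the filter, 66 with the prior, 20 with the trend and 2 with the covariate. Without single arrays these ran from 0 to 222. The other 3 comparisons and the LD cosine fit gave 0 member calls under all alternatives run. Over all probe sets, calls there ran from 0 to 9 for LD dark against light and from 0 to 6 for the daytime groups. They ran from 0 to 6 for the DD minus LD difference and from 0 to 38 for the LD cosine. Over all probe sets, the 194 calls between the DD phases ran from 34 to 254 without single arrays and from 0 to 202 under the other alternatives.

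Signs turned mostly with the trend. There Mlc1 was at -0.01 between the DD phases. Between LD dark and light, Act88F was at -0.54, Act79B -0.03, Mlc2 -0.06, Mlc1 -0.08, the dim up probe set -0.01, Tm2 -0.10 and TpnC4 -0.66. Between the nights, Act88F was at -0.31, Mlc2 -0.17, Mlc1 -0.53, Tm2 -0.09 and TpnC4 -1.24. Between the daytime groups, Act88F was at -1.34, fln -0.18, Act79B -0.18, Mlc2 -0.30, Mlc1 -0.60, the dim up probe set -0.04 and TpnC4 -1.95. With the marker covariate, Tm2 was at -0.01 between LD dark and light and Mlc1 at -0.06 between the nights, and the DD minus LD difference of night minus day was -0.02 for Mlc2, -0.17 for Mlc1 and -0.01 for TpnC4. None of these reversed values was called, and the cause was not tested. The trend was added to the group means, so its slope came only from times within groups. For the night and daytime comparisons it was extended over the 24 h between the days. Without single arrays, LD dark minus light ran from -0.01 to 0.08 for up, -0.01 to 0.11 for its dim probe set and 0.00 to 0.07 for Tm2. The daytime difference ran from -0.02 to 0.55 for Act88F, -0.02 to 0.15 for Act79B, -0.13 to 0.26 for TpnC4, -0.11 to 0.03 for up and 0.00 to 0.12 for its dim probe set. The DD minus LD difference of Mlc1 ran from -0.03 to 0.18. The 8 called member values kept their call in 58 of 96 refits without single arrays and lost it in 38; under the other alternatives they kept it in 35 of 62, lost it in 26 and reversed in 1. Among the members, dim signal limits fln, TpnC4 and the second probe set of up.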
